A study of Loxodonta africana with 12 samples.

Results

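Among the genes that were higher in African elephant (Loxodonta africana) blood cells after irradiation, 5 pairs of neighbours on a scaffold are described here: PIBF1 with DIS3, PVRL4 with KLHDC9, ATF3 with FAM71A, PHYHD1 with LRRC8A, and LACTB with RPS27L. They make up 10 of the 16406 gene rows in the tables. They were found by gene symbol, each symbol matched 1 row, and the partners of each pair were consecutive rows when the rows were ordered by start coordinate. The pairs were chosen by their measured fold changes, because both partners were higher in irradiated than in untreated libraries. Their irradiation fold changes are therefore given as a description, without a test, and tests are given for comparisons that this choice did not use.

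RNA was sequenced from blood cells in 12 libraries, 3 in each of 4 groups: cells that received 2 Gy of radiation and were collected at 5 h, untreated cells at 5 h, irradiated cells at 24 h and untreated cells at 24 h. All libraries came from total RNA depleted of ribosomal RNA and were made with a stranded kit. The labels name no animal, draw or culture, so a p-value here reflects how far these libraries vary, and that variation may be technical. The study's stated purpose is to find genes that differ between irradiated and untreated cells. Library totals were 31.1e6 to 38.1e6 counts at 5 h and 18e6 to 37.4e6 at 24 h. No allele, cell isolation step or cell type is given in the labels, and in such bulk samples fewer cells of a type and less RNA per cell cannot be told apart.

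Ionizing radiation breaks DNA, and damage kinases such as ATM then stabilize the transcription factor p53, which activates genes of cell cycle arrest, repair and apoptosis. In human and mouse cells RPS27L is a known p53 target, and ATF3 is a transcription factor induced by many stresses. Neighbouring genes can lie head-to-head, with their starts facing each other, in tandem, or tail-to-tail, and in mammals some head-to-head pairs share a promoter region.

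The 5 pairs covered all 3 arrangements. PIBF1, a protein of centriolar satellites and cilium formation (ENSLAFG00000009121, scaffold 11, 34475668 to 34687748, minus strand), lay head-to-head with DIS3, the catalytic ribonuclease of the RNA exosome (ENSLAFG00000009120, scaffold 11, 34689521 to 34719360, plus strand), and 1.77 kb separated their starts. PVRL4, the cell adhesion molecule nectin-4 (ENSLAFG00000006190, scaffold 33, 10610368 to 10627731, minus strand), lay head-to-head with KLHDC9, a kelch domain protein (ENSLAFG00000006195, scaffold 33, 10636041 to 10639693, plus strand), across a gap of 8.31 kb. These were the pairs whose starts faced each other.

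ATF3 (ENSLAFG00000032487, scaffold 148, 1208245 to 1213090, plus strand) and FAM71A, also named GARIN4, a gene known for expression in testis in human and mouse (ENSLAFG00000021976, scaffold 148, 1218696 to 1220558, plus strand), lay in tandem with ATF3 upstream, 5.61 kb between the genes and 10.5 kb between the starts. LRRC8A, the obligatory subunit of the volume-regulated anion channel (ENSLAFG00000018674, scaffold 6, 29234816 to 29243366, minus strand), lay upstream of PHYHD1, a relative of the phytanoyl-CoA hydroxylase of peroxisomes (ENSLAFG00000031812, scaffold 6, 29216599 to 29230117, minus strand), with a gap of 4.7 kb and 13.2 kb between the starts. LACTB, a filament-forming protein of mitochondria (ENSLAFG00000015480, scaffold 59, 9011125 to 9029788, plus strand), and RPS27L, a paralog of the ribosomal protein RPS27 (ENSLAFG00000015475, scaffold 59, 9038308 to 9040069, minus strand), were tail-to-tail with a gap of 8.52 kb and 28.9 kb between the starts. Coordinates refer to scaffolds of the assembly that the file headers name L_africana_Jul_2009, and the headers do not say whether they count from 0 or 1.

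In the RefSeq annotation of the mLoxAfr1.hap2 assembly, where PVRL4 is NECTIN4 and FAM71A is GARIN4, the partners of all 5 pairs were also on 1 chromosome with 0 coding genes between them. Over all rows, 16027 neighbouring rows had a median gap of 30.9 kb, and 29.6% had a gap below 10 kb. Of these neighbours 24.5% were head-to-head, 51% in tandem and 24.5% tail-to-tail. No 2 partners overlapped, while 2.86% of all neighbouring rows did.

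**Figure D1:**
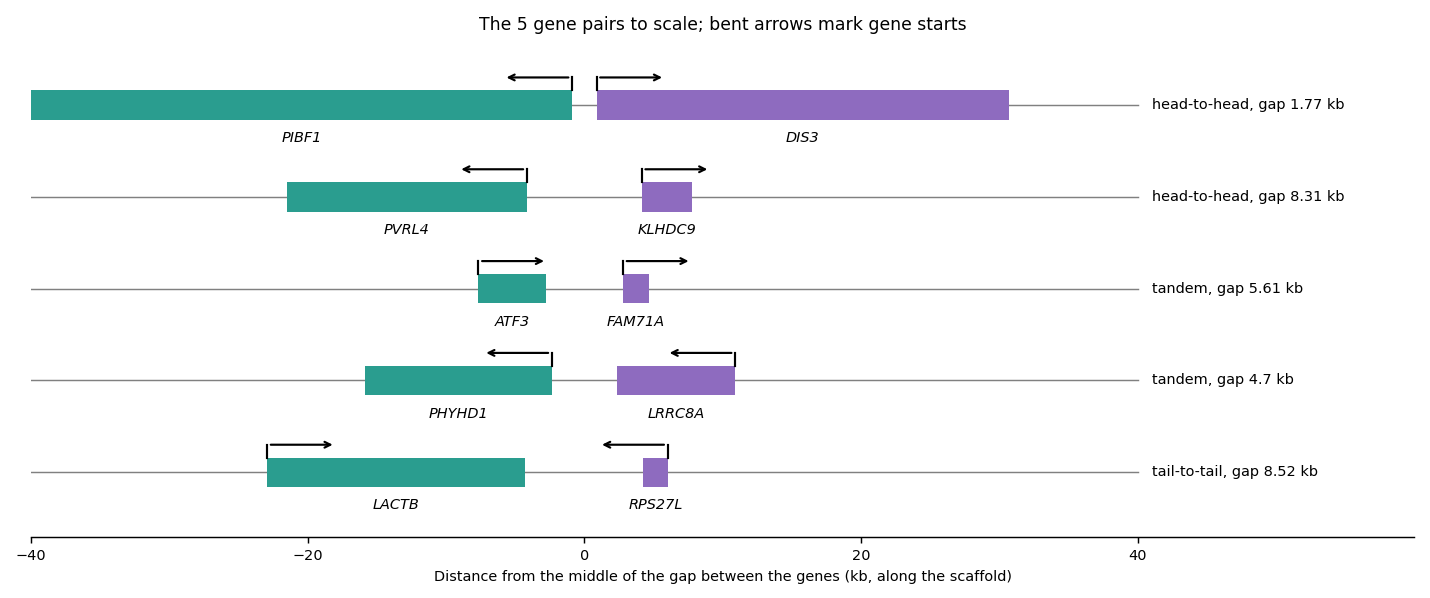
Map of the 5 pairs, drawn to scale in kb from the middle of the gap between the partners along each scaffold, with boxes for the gene spans and bent arrows for the starts and directions of transcription. PIBF1 runs on beyond the left edge; PIBF1 and DIS3 start 1.77 kb apart, while LACTB and RPS27L point at each other and start 28.9 kb apart.

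At 5 h both partners of each pair were higher in all 3 irradiated libraries than in any untreated library, but in 2 of the pairs the difference was far smaller for 1 partner than for the other. PIBF1 and LACTB were 1.6-fold and 1.27-fold higher, beside 2.92-fold for DIS3 and 4.17-fold for RPS27L. In the other 3 pairs the partners' fold changes at 5 h were 7.81 and 3.89 for PVRL4 and KLHDC9, 4.09 and 3.54 for ATF3 and FAM71A, and 3.6 and 2.52 for PHYHD1 and LRRC8A. Levels below are CPM, which are counts relative to the library size after scaling over the 12 libraries with the trimmed mean of M values (TMM), in the order of replicates 1 to 3. Fold changes are irradiated over untreated on the log2 scale, from an edgeR fit of the 6 libraries of that time, with the standard error (SE).

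PIBF1 had 15.1, 14.4 and 14.1 CPM in irradiated libraries at 5 h, against 8.69, 8.37 and 10.1 CPM in untreated ones. At 24 h its level was 27.6, 28.1 and 31.7 CPM with irradiation, against 24.9, 21 and 24.5 CPM without. In CPM every irradiated library was above every untreated one at both times, with a narrow margin at 24 h. Both 24 h groups were above both 5 h groups. In the authors' deposited FPKM, scaled to exon length and library size, the treatments overlapped at 24 h. PIBF1 was then at 13.8 to 15.8 FPKM in irradiated and 10.8 to 14.7 FPKM in untreated libraries. The log2 fold change was 0.67 ± 0.10 at 5 h and 0.30 ± 0.11 at 24 h.

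DIS3 had 105, 102 and 95.3 CPM in irradiated libraries at 5 h, against 33, 33.9 and 35.9 CPM in untreated ones. By 24 h it stood at 84, 90.5 and 91.8 CPM with irradiation and at 47.7, 45.8 and 51 CPM without. The groups were far apart at both times and did not overlap. Its log2 fold changes of 1.55 ± 0.07 at 5 h and 0.87 ± 0.09 at 24 h were more than those of PIBF1, whose start lies beside its own.

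PVRL4 was at 7.02, 9.55 and 5.74 CPM in irradiated libraries at 5 h, against 0.858, 0.94 and 1.01 CPM in untreated ones. In the 24 h libraries it had 5.76, 5.6 and 6.09 CPM after irradiation, against 2.6, 1.99 and 2.3 CPM untreated. The irradiated libraries overlapped in level between the times, while the untreated group was higher at 24 h than at 5 h. Its log2 fold change of 2.97 ± 0.23 at 5 h was the highest of the 10 genes, and that at 24 h was 1.33 ± 0.17.

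KLHDC9 was scarce. It had 22, 17 and 22 counts in irradiated libraries at 5 h, against 5, 7 and 3 counts in untreated ones. Later, at 24 h, it had 12, 12 and 9 counts in irradiated libraries, against 11, 7 and 5 in untreated ones. Its level did not overlap between the groups at either time, at 0.457 to 0.537 CPM in irradiated and 0.114 to 0.372 CPM in untreated libraries at 24 h. The log2 fold change was 1.96 ± 0.35 at 5 h and 1.09 ± 0.57 at 24 h.

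ATF3 had 84.2, 69.4 and 73.6 CPM in irradiated libraries at 5 h, against 22.9, 11.8 and 20.7 CPM in untreated ones. Its 24 h levels were 108, 94 and 125 CPM with irradiation, against 44.8, 47.6 and 49.9 CPM without. No irradiated library reached down to an untreated one of its time, and both treatments were higher at 24 h. The log2 fold change was 2.03 ± 0.22 at 5 h and 1.19 ± 0.11 at 24 h.

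FAM71A, downstream of ATF3, had 5.92, 5.15 and 5.74 CPM in irradiated libraries at 5 h, against 1.64, 1.41 and 1.66 CPM in untreated ones. At 24 h the levels were 14.4, 19.5 and 27.5 CPM with irradiation and 7.88, 6.93 and 9.6 CPM without. The groups did not overlap, the irradiated libraries at 24 h were spread widely, and even the untreated libraries at 24 h were above the irradiated ones at 5 h. Its log2 fold change was 1.82 ± 0.15 at 5 h and 1.31 ± 0.24 at 24 h.

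PHYHD1 was also scarce, with 33, 35 and 28 counts in irradiated libraries at 5 h, against 7, 13 and 6 counts in untreated ones. The 24 h libraries held 17, 34 and 22 counts after irradiation, against 25, 11 and 28 untreated. The groups were apart at 5 h. At 24 h they overlapped, at 0.649 to 1.52 CPM in irradiated and 0.318 to 0.845 CPM in untreated libraries. PHYHD1 was the one gene of the 10 with overlap in CPM. The log2 fold change was 1.85 ± 0.34 at 5 h and 0.85 ± 0.52 at 24 h.

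LRRC8A, upstream of PHYHD1, had 154, 147 and 133 CPM in irradiated libraries at 5 h, against 53.8, 61.7 and 55.2 CPM in untreated ones. Its 24 h values were 47.7, 49.9 and 54 CPM after irradiation, against 26.9, 31 and 31.6 CPM untreated. The groups did not overlap at either time. In CPM the irradiated libraries at 24 h were at or just below the level of the untreated libraries at 5 h. In the deposited FPKM they were at or above it, at 21.6 to 24.3 against 19.1 to 22.5. The log2 fold change was 1.33 ± 0.09 at 5 h and 0.75 ± 0.09 at 24 h.

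LACTB had 124, 125 and 124 CPM in irradiated libraries at 5 h, against 95.5, 95.2 and 101 CPM in untreated ones. Its levels at 24 h were 105, 86.5 and 85.7 CPM with irradiation, against 73.1, 82.9 and 74 CPM without. In CPM the groups were close but did not overlap. LACTB overlapped in the deposited FPKM at 24 h, at 71.9 to 89 in irradiated and 66.9 to 72.3 in untreated libraries. Its log2 fold change of 0.34 ± 0.06 at 5 h was the lowest of the 10 genes, and at 24 h it was 0.26 ± 0.11.

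RPS27L had 337, 335 and 307 CPM in irradiated libraries at 5 h, against 76.7, 77.3 and 78.6 CPM in untreated ones. By 24 h it was at 377, 359 and 332 CPM in irradiated libraries, against 113, 116 and 107 CPM in untreated ones. The groups were widely separated at both times. The log2 fold change was 2.06 ± 0.07 at 5 h and 1.66 ± 0.10 at 24 h, which was the highest of the 10 at 24 h. RPS27L is similar in sequence to RPS27, so reads may have been split between them in counting, and its level is uncertain to that extent.

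**Figure D2:**
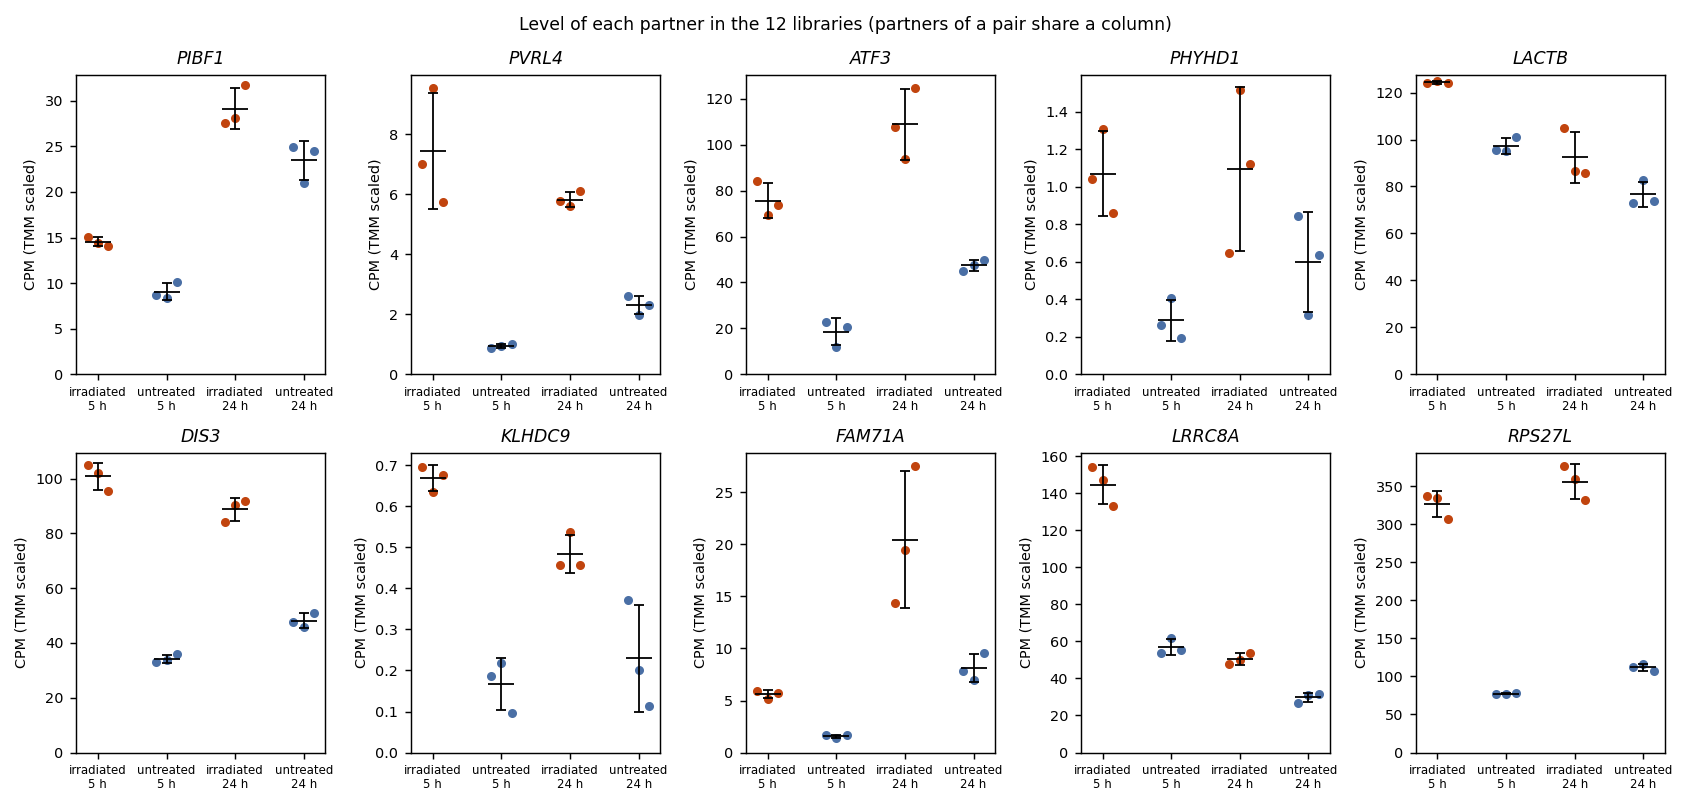
Level of each gene in CPM (linear axis from 0), with a column of panels for each pair, 1 point for each library and a bar for the mean ± SD of the 3 libraries; irradiated libraries are in red and untreated in blue. At 5 h the irradiated points lie above the untreated ones in all 10 panels, and at 24 h in all except that of PHYHD1.

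By edgeR's quasi-likelihood test with adjusted p below 0.05, all 10 genes were called higher at 5 h, where 1.12% of the 12969 genes tested were called higher. With the replicate number as a block, all 10 were again called, beside 10.6% of all genes. At 24 h 6 of the 10 were called (DIS3, PVRL4, ATF3, FAM71A, LRRC8A and RPS27L), where 1.80% of 14373 genes were called higher. In CPM the groups did not overlap, with irradiated higher, in all 10 genes at 5 h, where this held for 10.2% of all genes. At 24 h it held for 9 of the 10 and for 9.42% of all genes. In the deposited FPKM PIBF1 and LACTB also overlapped at 24 h. All of these counts come from the contrasts that chose the genes.

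The calls were uneven in strength. Leaving out any 1 of the 6 libraries at 5 h left 6 or 7 of the 10 genes called. KLHDC9, PHYHD1 and LACTB were lost whichever library was left out, and PIBF1 was lost without replicate 1 or 2 of either group. At 24 h 5 or 6 were called, and FAM71A was lost without irradiated replicate 2 or untreated replicate 1 or 2.

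Across the 10 genes the irradiation effect was smaller at 24 h than at 5 h in each case. The difference of the log2 fold changes, 24 h minus 5 h, in a fit of all 12 libraries was -1.64 ± 0.28 for PVRL4 and -0.86 ± 0.67 for KLHDC9. It was -0.84 ± 0.27 for ATF3 and -0.51 ± 0.30 for FAM71A, and -1.0 ± 0.63 for PHYHD1 and -0.59 ± 0.14 for LRRC8A. For DIS3 it was -0.68 ± 0.11, for PIBF1 -0.38 ± 0.15, for RPS27L -0.40 ± 0.11 and for LACTB -0.08 ± 0.13. These differences are built from the contrasts that chose the genes and carry no test, and the same difference was called in 0.882% of all genes.

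Marker genes of blood cell types moved as well, and their part in the values above was not tested. At 24 h all 7 B cell markers fell by edgeR's test, with a summed level of 52.3 to 70.7 CPM in irradiated and 325 to 385 CPM in untreated libraries. At 5 h 0 of the 7 was called and their sum was 145 to 181 CPM in irradiated and 219 to 260 CPM in untreated libraries, with 7 lower at an unadjusted p below 0.05, 4 called by DESeq2 and 7 with the block. Of the 4 monocyte and macrophage markers with rows, 2 rose at 24 h, and their sum was 5553 to 5750 CPM in irradiated and 3098 to 3497 CPM in untreated libraries. Of the other lists at 24 h, 1 of 5 T cell markers and 2 of 4 NK and cytotoxic cell markers fell, and 1 of 5 neutrophil and 3 of 3 platelet markers rose. Of the epithelial markers EPCAM fell at 24 h (-1.37 ± 0.28, edgeR adjusted p = 0.031), a call that was lost whichever library was left out. At 5 h 1 marker rose in each of 3 lists, named here after their values were seen: ITGAM of the 4 monocyte and macrophage markers (1306 to 1670 CPM in irradiated and 754 to 932 CPM in untreated libraries), S100A9 of the 5 neutrophil markers and GP9 of the 3 platelet markers (1.66 to 2.05 CPM and 0.219 to 0.422 CPM). The 5 neutrophil markers summed to 201 to 223 CPM in irradiated and 130 to 161 CPM in untreated libraries at 5 h. T cell, NK and cytotoxic cell, erythroid and epithelial markers had 0 calls at 5 h, where 3 of 5 T cell, 3 of 4 NK and cytotoxic cell and 1 epithelial marker were lower with the block. The block called 2 monocyte and macrophage markers higher and 1 lower, and 2 neutrophil markers higher and 2 lower. Among markers with a row, the epithelial keratins KRT18 and KRT19 were at 0 in a library, both in irradiated libraries at 5 h. For PVRL4, which is known from epithelia, the 5 epithelial markers summed to 4.4 to 6.94 CPM in irradiated and 7.72 to 10.6 CPM in untreated libraries at 5 h. They stood at 2.23 to 3.02 CPM in irradiated and 4.3 to 5.78 CPM in untreated libraries at 24 h. Most of these sums came from CDH1 and EPCAM, and the keratin KRT8 was at 0.203 to 0.611 CPM in irradiated and 0.0578 to 0.338 CPM in untreated libraries at 24 h.

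The genes differed widely in level per length, as given by the authors' deposited FPKM values, which are scaled to exon length and library size. In irradiated libraries at 5 h RPS27L led with 1093 ± 57.4 FPKM, ahead of ATF3 with 120 ± 11.2, LACTB with 81.6 ± 0.883, LRRC8A with 50.8 ± 3.65 and DIS3 with 30 ± 1.48 FPKM (mean ± SD, n = 3). PIBF1 (5.68 FPKM), PVRL4 (3.94), FAM71A (2.82), PHYHD1 (1.05) and KLHDC9 (0.544) followed, and no neighbours in this order overlapped. In untreated libraries at 5 h RPS27L again led with 265 ± 4.75 FPKM and KLHDC9 came last with 0.14 ± 0.0541 FPKM, and ATF3 overlapped with LRRC8A. At 24 h RPS27L reached 1570 ± 130 FPKM in irradiated and 524 ± 41.2 FPKM in untreated libraries. PIBF1 and FAM71A overlapped in irradiated libraries at 24 h. Among untreated libraries at that time LRRC8A overlapped with PIBF1, and PHYHD1 with KLHDC9.

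In all 5 pairs 1 partner was above the other in FPKM. In irradiated libraries at 5 h LRRC8A was at 50.8 FPKM beside PHYHD1 at 1.05 FPKM, and ATF3 at 120 FPKM beside FAM71A at 2.82 FPKM. DIS3 was at 30 FPKM beside PIBF1 at 5.68 FPKM. RPS27L was at 1093 FPKM beside LACTB at 81.6 FPKM, and PVRL4 at 3.94 FPKM beside KLHDC9 at 0.544 FPKM. The imbalance varied with the group: in untreated libraries at 24 h DIS3 was at 20.1 FPKM and PIBF1 at 12.9 FPKM.

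The time comparisons asked whether partners also moved together with time, with and without irradiation. They did not do so in every pair. Without irradiation and with TMM scaling, RPS27L rose and LACTB fell between the times, and FAM71A and ATF3 both rose. These comparisons did not choose the genes, but they use the same libraries, and they are compared with a wide background: 63.1% of 13445 genes were called between untreated libraries at 24 h and 5 h, 32.6% higher and 30.5% lower.

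In untreated libraries at 24 h against 5 h, 9 of the 10 genes passed the filter on low counts, 6 of them rose, 2 fell and 1 was not called (edgeR's quasi-likelihood test, Benjamini-Hochberg adjusted p). FAM71A rose by 2.42 ± 0.18 on the log2 scale (adjusted p = 1.3e-05) and its partner ATF3 by 1.41 ± 0.21 (adjusted p = 0.00046). PIBF1 rose by 1.42 ± 0.13 (adjusted p = 3.1e-05) and its partner DIS3 by 0.53 ± 0.09 (adjusted p = 0.00078). PVRL4 rose by 1.33 ± 0.25 (adjusted p = 0.0017), while KLHDC9 was below the filter.

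In the remaining pairs the partners parted by these fits. RPS27L rose by 0.57 ± 0.08 (edgeR adjusted p = 0.0004), whereas LACTB fell by 0.30 ± 0.08 (adjusted p = 0.011). That fall depends on the scaling, as the TMM factors were 0.849 to 0.887 at 5 h and 1.09 to 1.29 at 24 h. In the deposited FPKM LACTB did not fall, with 65 ± 1.77 in untreated libraries at 5 h and 70.2 ± 2.92 at 24 h. LRRC8A fell by 0.89 ± 0.10 (adjusted p = 8.5e-05), and PHYHD1 had a log2 fold change of 1.08 ± 0.51 that did not pass the test (adjusted p = 0.092, and 0.049 without untreated replicate 2 at 24 h). The median log2 fold change of all genes in this comparison was 0.11.

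In irradiated libraries, 24 h against 5 h, 5 of the 10 genes were called, 3 higher and 2 lower, where 65.9% of 14028 genes were called, 35.3% higher and 30.6% lower. FAM71A rose by 1.92 ± 0.22 on the log2 scale (edgeR adjusted p = 0.00014), ATF3 by 0.58 ± 0.13 (adjusted p = 0.0035) and PIBF1 by 1.06 ± 0.11 (adjusted p = 6.1e-05). LRRC8A fell by 1.46 ± 0.10 (adjusted p = 9.4e-06) and LACTB fell by 0.37 ± 0.11 (adjusted p = 0.014). The deposited FPKM of LACTB overlapped between these groups, at 81.6 ± 0.883 at 5 h and 79.8 ± 8.63 at 24 h. By these fits ATF3 and FAM71A were the pair in which both partners rose in both time comparisons. In the deposited FPKM PIBF1 and DIS3 were also both higher at 24 h with either treatment. PIBF1 had means of 3.59 and 12.9 FPKM untreated and 5.68 and 14.9 FPKM irradiated, at 5 h and 24 h. DIS3 had 10.4 and 20.1 FPKM untreated and 30 and 34.8 FPKM irradiated.

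The other 5 genes missed the threshold in irradiated libraries between the times. DIS3 differed by -0.13 ± 0.09 (edgeR adjusted p = 0.24) and PVRL4 by -0.30 ± 0.20 (adjusted p = 0.23). KLHDC9 differed by -0.41 ± 0.27 (adjusted p = 0.22), PHYHD1 by 0.08 ± 0.34 (adjusted p = 0.84) and RPS27L by 0.18 ± 0.10 (adjusted p = 0.14, and 0.04 with a filter of 1 CPM in 3 libraries). With TMM scaling DIS3, PVRL4 and RPS27L were thus called between the times without irradiation and not called with it. The difference between those changes is the interaction given above. In the deposited FPKM of irradiated libraries, DIS3 was at 28.3 to 31.1 at 5 h and at 32.2 to 37.2 at 24 h. RPS27L was at 1027 to 1130 at 5 h and 1421 to 1662 at 24 h, also without overlap, while PVRL4 overlapped between the times.

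The balance of the partners was read as the log2 ratio of their counts in each library, with 1 count added to each, which needs no scaling between libraries. For PIBF1 over DIS3 the ratio was -2.79 ± 0.04 in irradiated libraries at 5 h, against -1.92 ± 0.09 in untreated ones (mean ± SD, n = 3). It was -1.61 ± 0.08 in irradiated libraries at 24 h, against -1.04 ± 0.10 in untreated ones. Irradiation thus went with a balance further towards DIS3, and time with one further towards PIBF1.

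LACTB over RPS27L differed more between the treatments. Its log2 ratio was -1.39 in irradiated libraries at 5 h, against 0.33 in untreated ones, and -1.95 in irradiated libraries at 24 h, against -0.54 in untreated ones. The order of the genes by raw count was reversed in the untreated libraries at 5 h, where LACTB had more counts than RPS27L. Counts are not per length, so this is no statement on which transcript was more abundant.

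ATF3 over FAM71A kept about the same balance with irradiation at each time. The log2 ratio was 3.75 ± 0.08 in irradiated and 3.47 ± 0.39 in untreated libraries at 5 h, and 2.45 ± 0.39 in irradiated and 2.55 ± 0.20 in untreated libraries at 24 h (SD, n = 3), overlapping at both times. It was lower at 24 h than at 5 h, with differences of -1.30 in irradiated and -0.92 in untreated libraries, so further towards FAM71A.

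PVRL4 over KLHDC9 differed by 1.06 between irradiated and untreated libraries at 5 h, and by 0.17 at 24 h, with overlap. At 5 h the groups did not overlap, but the nearest libraries were at 3.03 irradiated and 3.00 untreated. That margin rests on the 1 count added. The raw counts were 187 over 22 in that irradiated library and 31 over 3 in that untreated one, a larger ratio. PHYHD1 over LRRC8A overlapped between irradiated and untreated libraries at both times, at -7.05 and -7.52 at 5 h and -5.55 and -5.67 at 24 h. It was higher at 24 h than at 5 h by 1.5 in irradiated and 1.85 in untreated libraries.

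With 3 libraries a group, a two-sided exact permutation test cannot give a p below 0.10. Of the 10 tests of a ratio between 24 h and 5 h, 5 pairs in irradiated and in untreated libraries, 8 reached that smallest p of 0.10, with no overlap between the times, which was 4 of 5 pairs for either treatment. Over all neighbouring rows in which both genes were tested, the ratio did not overlap between 24 h and 5 h in 66.6% of pairs in irradiated libraries and in 62.7% in untreated ones, so the share among the 5 pairs is near this background. The 2 that did not were those of PVRL4 over KLHDC9, with an exact p of 0.80 in irradiated and 0.20 in untreated libraries.

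**Figure D3:**
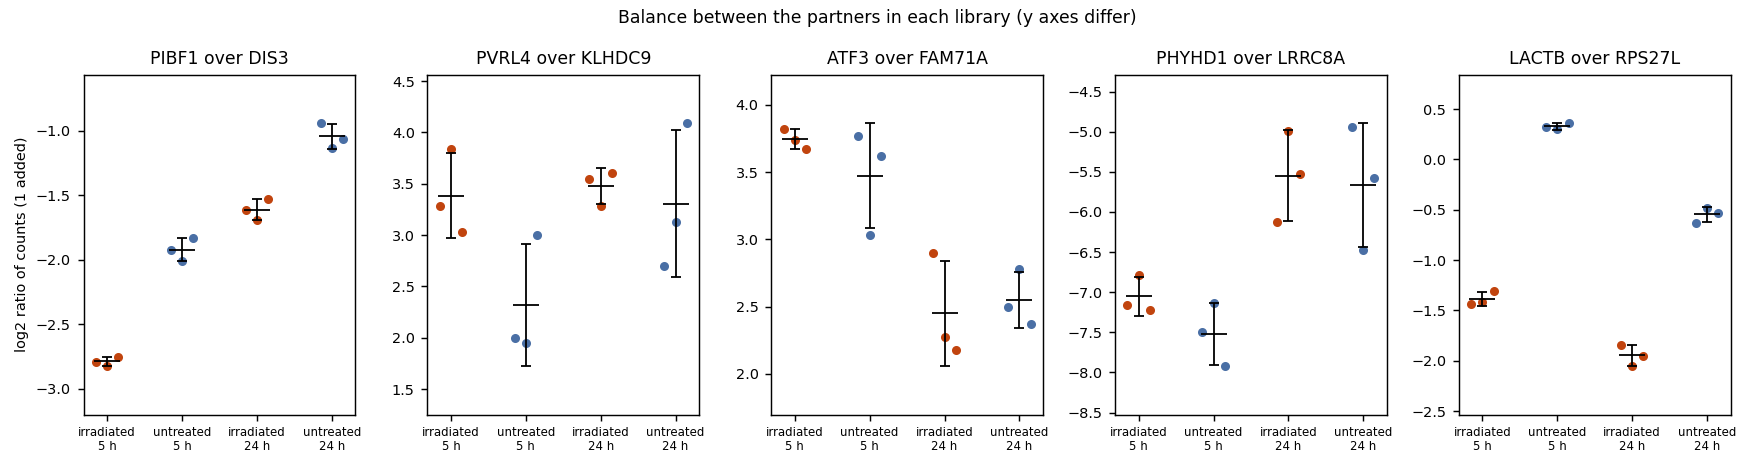
Log2 ratio of the partners' counts (1 added) in each library, with irradiated libraries in red, untreated in blue and bars for the mean ± SD of the 3 libraries; the y axes differ between panels. PIBF1 over DIS3 and LACTB over RPS27L are lower in irradiated than in untreated libraries at both times, while ATF3 over FAM71A overlaps between the treatments and is lower at 24 h.

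The genes around the pairs were compared next, as the 3 rows before and the 3 rows after each pair, 30 genes in all, each of which passed the filter at both times. They did not choose the pairs. At 5 h 1 of the 30 rose and 0 fell by edgeR's test, beside 1.12% and 0.478% of all genes. At an unadjusted p below 0.05, 8 of them were higher and 0 lower, and DESeq2, which called 1.85% and 1.57% of all genes higher and lower, called 3 higher and 0 lower. With the replicate block, which called 20.5% of all genes, 10.6% higher and 9.92% lower, the count was 9 higher and 0 lower. The median log2 fold change of the 30 was 0.13 at 5 h, beside 0.00 over all genes, and 22 of the 30 were positive.

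The gene that rose was F11R, a junctional adhesion molecule that is the third row before PVRL4, 69.4 kb away. Its log2 fold change was 1.03 ± 0.14 at 5 h (edgeR adjusted p = 0.013). Without irradiated replicate 1 or untreated replicate 2 or 3 it missed the threshold, with an adjusted p of up to 0.065. At 24 h it was at 0.14 ± 0.22 (adjusted p = 0.75).

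None of the 10 nearest rows, 1 on each side of a pair, was called at either time, where 3 at 5 h and 2 at 24 h were higher at an unadjusted p below 0.05 and DESeq2 called 0 and 1. With the replicate block 3 of them passed at 5 h: KLF5, a transcription factor next to PIBF1 (log2 fold change 0.58 ± 0.18, adjusted p = 0.22, and 0.0015 with the block), ARHGAP30, a GTPase regulator 2.71 kb from PVRL4 (0.22 ± 0.13, adjusted p = 0.54, and 0.00055 with the block), and RAB8B, a small GTPase next to RPS27L (0.23 ± 0.08, adjusted p = 0.3, and 0.0031 with the block). Close to the pairs but near 0 at 5 h were BORA, a mitotic activator of Aurora A 4.45 kb from DIS3 (0.03 ± 0.07), and PFDN2, a prefoldin subunit 0.437 kb from KLHDC9 (-0.06 ± 0.10). DOLK, dolichol kinase 2.35 kb from PHYHD1, had 0.14 ± 0.07.

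The other nearest rows lay farther away. NENF, 199 kb before ATF3, and BATF3, a leucine zipper factor 82.7 kb after FAM71A, had log2 fold changes of -0.13 ± 0.12 and -0.10 ± 0.25 at 5 h. TPM1, a tropomyosin 52 kb before LACTB, had 0.20 ± 0.16. CCBL1, 66.6 kb beyond LRRC8A, had the highest value of the 30 at 1.38 ± 0.45, with an edgeR adjusted p of 0.25.

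At 24 h 0 of the 30 flanking genes rose and 1 fell, beside 1.80% and 4.94% of all genes, and the median was 0.08, beside 0.01. At an unadjusted p below 0.05, 2 were higher and 3 lower, and DESeq2, which called 4.22% and 7.72% of all genes, called 1 higher and 2 lower. The one that fell was a pseudogene with no symbol (ENSLAFG00000032316) 3 rows before LACTB, and it fell by 0.66 ± 0.13 (edgeR adjusted p = 0.028). It missed the threshold when any library except irradiated replicate 1 was left out, with an adjusted p of up to 0.084.

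**Figure D4:**
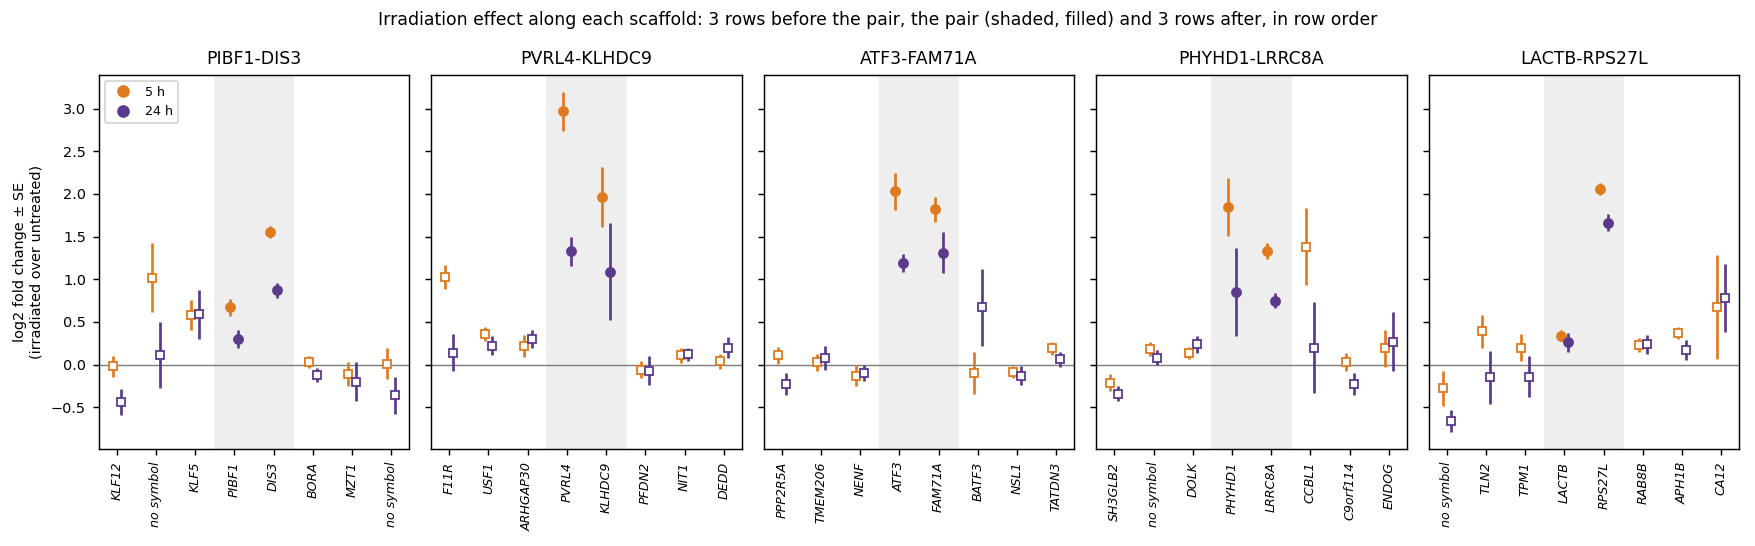
Log2 fold change ± SE, irradiated over untreated, of the pair (shaded, filled circles) and of the 3 rows before and after it (open squares), in row order along each scaffold and not to scale in distance, at 5 h in orange and 24 h in purple. The pairs stand above most of their neighbours, with F11R at 1.03 and CCBL1 at 1.38 the highest flanking values at 5 h, while LACTB at 0.34 lies within the range of the rows around it. At 5 h PIBF1 at 0.67 is below the second row before it, a gene without a symbol at 1.02 ± 0.40, and LRRC8A at 1.33 is below CCBL1.

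How common such pairs are was counted over all neighbouring rows in which both genes were tested. At 5 h both genes were called higher in 11 of 10614 such pairs, or 0.104%, and 5 of the 11 are the pairs described here. With the replicate block the number was 234, and with DESeq2 it was 23. The pairs of the 11 in which both genes carry a symbol and the gap is below 10 kb were just these 5, a boundary that was found after the pairs had been given. LACTB with RPS27L, at 8.52 kb, was the widest inside it.

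Outside it were 3 pairs of genes with symbols: DENND6B with the semaphorin receptor PLXNB2 at 20 kb (log2 fold changes 1.02 and 3.55), SLC35E3 with MDM2, the ubiquitin ligase of p53, at 40.2 kb (0.65 and 2.64), and AKAP1 with SCPEP1 at 98.3 kb (0.69 and 0.73). Each of the other 3 included at least 1 gene without a symbol. Both genes were higher in 7 of 3663 pairs with a gap below 10 kb (0.191%) and in 4 of 6951 with a wider one (0.0575%). The 5 pairs described are among those 7, and without them both genes were higher in 2 of 3658 pairs with a gap below 10 kb (0.0547%). By arrangement they were higher in 2 of 2709 head-to-head pairs, 8 of 5386 tandem pairs and 1 of 2519 tail-to-tail pairs.

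Read per gene, 22 of the 141 genes called higher at 5 h that had a tested neighbour also had a neighbour called higher, or 15.6%, against 221 of 12298 genes not called higher, or 1.8%. At 24 h it was 31 of 256, or 12.1%, against 422 of 13784, or 3.06%. These shares include the 10 genes themselves, and without them it was 12 of 131 genes at 5 h, or 9.16%, and 29 of 250 at 24 h, or 11.6%. Neighbours are counted from both sides, and no test was made.

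At 24 h both genes were called higher in 17 of 12634 pairs, or 0.135%. Of the 5 pairs described, ATF3 with FAM71A was among them, since 1 partner of each of the other pairs was not called. This pair and 1 other, PDGFB with a gene without a symbol, were counted at both times.

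**Figure D5:**
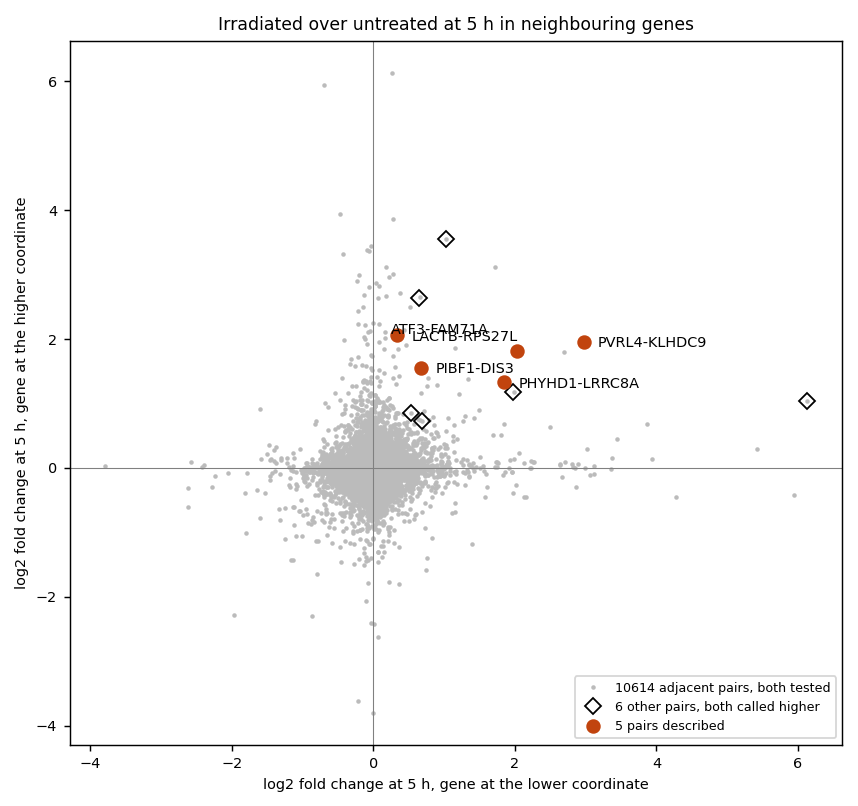
Log2 fold changes at 5 h, irradiated over untreated, of both genes in each of 10614 pairs of neighbouring tested genes, with the gene at the lower coordinate on the x axis and that at the higher coordinate on the y axis. Grey points are the remaining pairs; the 5 pairs described (red circles) and the 6 other pairs with both genes called higher (diamonds) lie to the upper right.

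Relatives of the 10 genes, a loose grouping in which not every gene shares a family or complex, were read from lists of 72 genes. At 5 h 56 of them were tested, and 0 rose and 1 fell by edgeR's test. At an unadjusted p below 0.05, 1 was higher and 7 lower, DESeq2 called 0 and 1, and the replicate block called 4 and 9. The gene that fell was TIGIT, a lymphocyte receptor for nectin family members, with a log2 fold change of -0.86 ± 0.15 (adjusted p = 0.035). It kept that call in 1 of the 6 fits that left out a library, the one without irradiated replicate 3, and reached an adjusted p of up to 0.18 in the others. The median log2 fold change of the 56 was -0.01, and 27 were positive.

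The most abundant relatives stayed near 0 at 5 h. Beside ATF3, which had 2.03, ATF4 had 0.14 ± 0.09 and ATF6 0.10 ± 0.06. The exosome cofactor SKIV2L2 had 0.04 ± 0.06 and DIS3L, a cytoplasmic relative of DIS3, had 0.14 ± 0.08, where DIS3 had 1.55. The channel subunits LRRC8D and LRRC8B had -0.15 ± 0.17 and 0.08 ± 0.13, where LRRC8A had 1.33.

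The nectin relatives PVR and PVRL2 had -0.08 ± 0.19 and 0.07 ± 0.13 at 5 h. RPS29 and RPS28 had 0.02 ± 0.09 and -0.10 ± 0.07 beside RPS27L at 2.06. The centriolar genes PCM1 and MIB1 had 0.04 ± 0.06 and 0.00 ± 0.08. Among kelch domain genes KLHDC4 had 0.14 ± 0.11 and KLHDC2 0.18 ± 0.08, of which the second passed only with the block (adjusted p = 0.38, and 0.033), as did KLHDC4 (0.66, and 0.03) and ATF4 (0.58, and 0.016).

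In the smaller lists, the FAM71 relatives FAM71F2 and FAM71E1 had 0.10 ± 0.26 and 0.38 ± 0.57 at 5 h, and HACL1 and PHYH, enzymes of phytanic acid breakdown, had -0.46 ± 0.17 and -0.23 ± 0.29. HACL1 was called lower with the block (adjusted p = 0.3, and 0.015). PISD and LACTB2 had 0.08 ± 0.09 and -0.01 ± 0.10.

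At 24 h 57 relatives were tested, and 0 rose and 5 fell, beside 1.80% and 4.94% of all genes. At an unadjusted p below 0.05, 6 were higher and 16 lower, and DESeq2 called 3 higher and 7 lower. The exosome core subunit EXOSC5 fell by 1.29 ± 0.12 on the log2 scale (edgeR adjusted p = 0.0019) and EXOSC7, another core subunit, fell by 0.58 ± 0.10 (adjusted p = 0.017), while DIS3, the ribonuclease that binds that core, was 0.87 ± 0.09 higher. Of 13 exosome relatives tested at 24 h, 0 had a positive fold change, and their median was -0.23.

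LRRC8C, an alternative partner of LRRC8A in the anion channel, fell by 1.15 ± 0.13 at 24 h (edgeR adjusted p = 0.0036), where LRRC8A was 0.75 ± 0.09 higher. TIGIT fell by 1.15 ± 0.17 (adjusted p = 0.012) and CD226, another lymphocyte receptor of that family, fell by 0.63 ± 0.13 (adjusted p = 0.03). EXOSC5 and LRRC8C passed without any 1 library. TIGIT was lost without irradiated replicate 2 (adjusted p = 0.064). EXOSC7 was lost in 4 of the 6 such fits, without irradiated replicate 2 or any 1 untreated library, and CD226 in 5 of 6, all but the one without irradiated replicate 1. B cell markers fell in the same libraries, by the sums given above, and their part in these falls was not tested.

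Other targets of p53 in human cells were read from a list of 40 genes that leaves out the 10, of which 33 were tested. At 5 h 14 rose and 0 fell, beside 1.12% and 0.478% of all genes, with a median log2 fold change of 0.23, beside 0.00. With the replicate block 19 were called higher and 1 lower, PHLDB3 (-0.25 ± 0.09, adjusted p = 0.3, and 0.016 with the block). BAX, which permeabilizes mitochondria in apoptosis, rose by 1.85 ± 0.06 (edgeR adjusted p = 1.4e-05), cyclin G1 (CCNG1) by 2.15 ± 0.08, MDM2 by 2.64 ± 0.11 and PHLDA3, an inhibitor of AKT, by 5.94 ± 0.24 (adjusted p = 2.4e-05 for each of the last 3). RPS27L, at 2.06, and ATF3, at 2.03, were between BAX and CCNG1 in size.

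Some of these calls were lost in fits that left out 1 library, which hold fewer samples. TRIAP1 kept a log2 fold change of 0.45 to 0.48 in those fits, and GADD45A one of 0.93 to 1.31. GADD45A and TRIAP1 missed the threshold whichever of the 6 libraries at 5 h was left out, and C12orf5 did so in all but the fit without irradiated replicate 3. GDF15 missed it without any 1 untreated library and PPM1D without irradiated replicate 1.

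At 24 h 10 of the 33 targets rose and 0 fell, beside 1.80% and 4.94% of all genes, with a median of 0.59, beside 0.01. DESeq2 called SESN1 lower (-0.49 ± 0.12, edgeR adjusted p = 0.057, and 0.014 by DESeq2). It also called GDF15, GADD45A, TRIAP1 and DRAM1 higher, which edgeR did not. SESN2 was lost without irradiated replicate 2 or 3 or untreated replicate 1 or 2. MDM2 rose by 2.68 ± 0.10 (edgeR adjusted p = 0.00017), CCNG1 by 1.71 ± 0.09 (adjusted p = 0.00024), ZMAT3, an RNA-binding zinc finger protein, by 2.99 ± 0.18 (adjusted p = 0.00032) and BAX by 1.61 ± 0.11 (adjusted p = 0.00053). RPS27L, at 1.66, was close to BAX and CCNG1.

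The genes most like each pair were taken as those with the smallest root mean square difference of the 4 group means of log2 CPM (1 CPM added), centred per gene, from the mean profile of the pair, among 10388 genes with a symbol and a mean of at least 1 CPM. For PIBF1 with DIS3 these were CMA1, a mast cell chymase, at 0.054 and SGCB at 0.110. For PVRL4 with KLHDC9 they were UNC5B, a netrin receptor, at 0.057 and TUBB3, a beta tubulin, at 0.079. FBXO32 at 0.265 and GADD45A, a stress response gene, at 0.266 were the nearest to ATF3 with FAM71A.

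PLAU, the urokinase, at 0.057 and GSS, glutathione synthetase, at 0.067 were nearest to PHYHD1 with LRRC8A, and TUBB3 at 0.075 was among the nearest to LACTB with RPS27L. All of these lie on other scaffolds than the pair they resemble. The 1 CPM added before log2 lessens the changes of scarce genes, among them TUBB3, KLHDC9 and PHYHD1. TUBB3, at group means of 0.255 to 2.09 CPM, had a fitted log2 fold change of 2.99 at 5 h, above RPS27L at 2.06 and LACTB at 0.34. By the same measure each partner lay 0.232 from the mean profile of its pair for ATF3 and FAM71A, 0.306 for PIBF1 and DIS3, 0.320 for PVRL4 and KLHDC9, 0.364 for PHYHD1 and LRRC8A and 0.428 for LACTB and RPS27L. Each partner is part of that mean, which shortens its distance: between ATF3 and FAM71A themselves it was 0.464. The genes named were the nearest of 10388 candidates. The distances of partners and of named genes therefore cannot be ranked against each other. The likeness rests on 4 group means, which hold the contrasts that chose the pairs, and the genes share the libraries.

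A splicing value from the authors was found in 1 of the 10 genes. In the authors' deposited table for 5 h, PVRL4 has a splice entry with a log2 ratio of 2.53 and a score of 46 for a region on scaffold 33 from 10615113 to 10615404, which lies within the gene. The authors' deposited table gives such an entry for 71 genes at 5 h and for 190 at 24 h, and for none of the 10 at 24 h. How that ratio and score are defined could not be read from the files or labels.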

How the data were processed

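The authors deposited 1 table for each time. Per the file headers it holds raw read counts for each gene and library, FPKM values, the authors' log2 ratio of the groups (coded untreated over irradiated and not used in any fit), and a splice log2 ratio and score, which are printed as the authors deposited them. No header or label names the aligner, the counting program or the use of strand in counting, so reads of overlapping genes cannot be told apart. The 10 genes and all gene lists were chosen with earlier results of these data known.

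Counts were fitted with edgeR 4.0.16 in R 4.3.3 (filterByExpr, TMM, quasi-likelihood F test, Benjamini-Hochberg adjustment over all genes tested, threshold 0.05), each comparison in its own 6 libraries and the difference between times in all 12. SE values were taken from the F statistic. DESeq2 1.42.0, RLE scaling, other filters, all 12 libraries in 1 fit, the replicate block and leaving out each library were alternatives, and the code was tested on simulated data. Partner ratios and their exact tests were added after the other values had been seen. Named besides the 10 were the nearest flanking genes, flanking genes and relatives that passed, the 2 most abundant relatives of each family, the 4 p53 targets with the smallest p at each time, and the 2 genes most like each pair, of which 1 is not reported here. Precision is limited by 3 libraries a group and, for KLHDC9 and PHYHD1, by few counts.

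Replicate numbers come from the labels. At 5 h the deviations of same-numbered libraries from their group means correlated at 0.37, 0.33 and 0.57 over 12969 genes, so these numbers were taken to pair the libraries at 5 h, and blocked values stand beside results there where they change a call that is named or move a count by over 1.5 times. At 24 h and between the times they did not all correlate. The search for promoter motifs was not run, since no sequences were used here.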

Additional observations from a re-analysis of the deposited data

Results flagged for a closer look

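In 3 of the genes named or listed beside the pairs, the irradiation effect differed between the times by edgeR's interaction test over all 12 libraries, where 134 of 15200 genes passed. For LRRC8C, the channel partner of LRRC8A, the log2 fold change at 24 h minus that at 5 h was -0.92 ± 0.18 (adjusted p = 0.027), from -1.15 at 24 h and -0.23 at 5 h. It missed the threshold in 6 of the 12 fits that left out 1 library (irradiated replicate 2 or 3, or untreated replicate 1 or 3, at 5 h, and untreated replicate 1 or 3 at 24 h), with an adjusted p of up to 0.087. For CDKN1A, the cell cycle inhibitor p21 and a p53 target, the difference was 1.24 ± 0.25 (adjusted p = 0.034), from 2.58 at 24 h and 1.33 at 5 h. It missed the threshold in 9 of the 12 such fits, with an adjusted p of up to 0.1, and kept it without untreated replicate 1 at 5 h and without irradiated replicate 2 or untreated replicate 2 at 24 h. For TP53INP1, another p53 target, it was -1.22 ± 0.17 (adjusted p = 0.0039), from 1.49 at 24 h and 2.71 at 5 h, and it passed in all 12 fits. LRRC8C and CDKN1A moved away from 0 with time and TP53INP1 towards it.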

How the results depend on the processing

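The fold changes of the 10 genes kept their direction under the settings run, except that of PHYHD1 between irradiated libraries at 24 h and 5 h, which was 0.08, -0.01 with no filter and -0.31 to 0.29 with 1 library left out. Every setting used TMM or RLE scaling and none used library totals alone. The changes between the times may depend on this, among them the fall of LACTB and the missing calls of DIS3 and RPS27L in irradiated libraries. The number of genes called at 5 h was 207, and it was 444 with DESeq2, 2655 with the replicate block and 86 to 191 with 1 library left out. At 24 h it was 968, and it was 1715 with DESeq2, 1670 with all 12 libraries in 1 fit, 293 to 1061 with 1 library left out and 707 with the replicate block. The difference between times was called in 134 genes, in 362 with DESeq2, and in 76 to 168 with 1 library left out. Neighbouring pairs with both genes higher numbered 11 at 5 h, 23 with DESeq2, 234 with the replicate block and 2 to 8 with 1 library left out. At 24 h they numbered 17, 70 with DESeq2, 50 in the fit of 12 libraries and 2 to 27 with 1 library left out. Fits that leave out a library hold fewer samples. The cause of the other shifts was not tested. Between times, 9249 genes were called in irradiated libraries (8338 to 9940 with 1 left out, 8888 with the block) and 8490 in untreated ones (7219 to 8387, and 8101).

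At 24 h and between times same-numbered libraries share only a number: correlations at 24 h were 0.12, -0.40 and 0.65, and the block called 139 genes for the difference between times. At 5 h the block changed no call of the 10 genes, and 9, 8 and 7 of them were called with no filter, a stricter filter and 1 fit of 12 libraries. KLHDC9 and PHYHD1, with 3 to 35 counts a library, are limited by depth.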
